A study of Homo sapiens with 9 samples.

Results

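A set of 9 genes of cytosolic DNA sensing and nucleic acid clearance were followed in IMR90 cells, human fibroblasts grown from fetal lung. They were listed by gene symbol and matched to the gene names of the authors' deposited table, and make up 9 of the 64253 genes counted. MB21D1 encodes cGAS and TMEM173 encodes STING. The others are TBK1, IRF3, MAVS, TREX1 and the subunit genes RNASEH2A, RNASEH2B and RNASEH2C. Each symbol matched 1 gene identifier. RNA was sequenced from 9 libraries, 3 in each of 3 groups, which the labels letter a, b and c. The control cells received a pLKO.1 lentiviral vector, described as empty in the sample labels and as carrying GFP in the treatment protocol. The shRRM2 cells received a hairpin against RRM2, a subunit of the enzyme that makes deoxyribonucleotides, and are labelled as senescent through their depletion. The shRRM2/shp16 cells received the RRM2 hairpin and a hairpin against p16, and are labelled as having bypassed that senescence. In every group the cells were at population doubling 30 in 2% oxygen, a second virus followed the first after 24 hours, and selection in 3 ug/mL puromycin lasted 7 days. No group carried the p16 hairpin alone and the labels name 1 hairpin per gene, so the shRRM2/shp16 cells show the p16 hairpin only on top of the RRM2 hairpin. The labels do not say that the 3 libraries of a group came from separate cultures, so the p-values measure the spread between these libraries, which may be technical.

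cGAS binds double-stranded DNA in the cytosol and makes the cyclic dinucleotide cGAMP, which binds STING on the endoplasmic reticulum. STING recruits the kinase TBK1, which phosphorylates the transcription factor IRF3, and IRF3 then enters the nucleus and switches on type I interferon and chemokine genes. MAVS, on mitochondria, carries signals from RNA receptors to the same kinase. TREX1 is a DNA exonuclease that removes cytosolic DNA, and RNase H2, built from the catalytic subunit RNASEH2A and the subunits RNASEH2B and RNASEH2C, removes ribonucleotides from DNA and cuts RNA paired with DNA. Inherited loss of TREX1 or of any RNase H2 subunit causes Aicardi-Goutières syndrome, in which interferon is made without infection. Release of DNA into the cytosol and signalling through cGAS and STING are known features of senescent fibroblasts.

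The gene rows held 15770895 to 24873291 counts per library. RRM2 was at 481 to 491 CPM in control (gene counts scaled to library size with TMM factors), 60.0 to 63.2 CPM in shRRM2 and 175 to 181 CPM in shRRM2/shp16. CDKN2A, which encodes p16, was at 5.95 to 6.15, 5.97 to 6.79 and 3.93 to 4.57 CPM in the same order, on 79 to 142 counts per library, and the whole-gene count does not separate p16 from the other transcripts of the locus. RRM2 was higher in shRRM2/shp16 than in shRRM2 (log2 fold change 1.51, edgeR adjusted p 7.92e-34). In that comparison the added p16 hairpin and the higher RRM2 level cannot be told apart. The 8 fibroblast markers summed to 37180 to 38350 CPM in control, 40430 to 41400 CPM in shRRM2 and 28460 to 29120 CPM in shRRM2/shp16. COL1A1, FN1 and COL1A2 were the largest members of this sum in every group, and single markers did not all follow it. Relative to control, 3 were called higher and 4 lower with the RRM2 hairpin alone, and 2 higher and 5 lower with both hairpins. With both hairpins, mean COL3A1 rose from 1722 to 3631 CPM and mean VIM fell from 5334 to 2136 CPM. The 8 immune markers summed to at most 3.56 CPM in any library, the 6 endothelial markers to at most 6.52 CPM, and the 8 epithelial markers to 24.9 to 26.6, 13.7 to 14.9 and 4.60 to 7.04 CPM in the 3 groups. CLDN4 made up most of the epithelial sum in control and shRRM2 and stood at 1.90 to 3.06 CPM in shRRM2/shp16, while KRT5 and SFTPC had 0 counts in all libraries. The share of uniquely aligned reads outside annotated genes was 17.6% to 18.9% in control, 27.7% to 28.8% in shRRM2 and 23.5% to 24.4% in shRRM2/shp16, and its part in the results was not tested. In bulk RNA, a lower count from fewer expressing cells and one from less RNA per cell cannot be told apart.

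The genes lie on 8 chromosomes of GRCh38 by GENCODE 29, and all 9 are protein-coding. RNASEH2A (ENSG00000104889) lies at chr19:12806556-12815201 on the plus strand, RNASEH2B (ENSG00000136104) at chr13:50909678-51024120 on the plus strand and RNASEH2C (ENSG00000172922) at chr11:65714005-65720947 on the minus strand. TREX1 (ENSG00000213689) lies at chr3:48465811-48467645 on the plus strand. MB21D1 (ENSG00000164430) lies at chr6:73413515-73452276 and TMEM173 (ENSG00000184584) at chr5:139475534-139482935, both on the minus strand. TBK1 (ENSG00000183735) lies at chr12:64451880-64502108 on the plus strand, IRF3 (ENSG00000126456) at chr19:49659569-49665875 on the minus strand and MAVS (ENSG00000088888) at chr20:3846799-3876123 on the plus strand.

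The 250 bases before a RefSeq start site are shown for the 3 RNase H2 subunit genes, which were all lower in shRRM2 than in control, and for TBK1, the gene that was higher (GRCh38.p14, 5′ to 3′ on the strand of the gene). RNASEH2A is shown from chr19:12806334-12806583 on the plus strand, RNASEH2B from chr13:50909428-50909677 on the plus strand, RNASEH2C from chr11:65720799-65721048 on the minus strand and TBK1 from chr12:64451870-64452119 on the plus strand. Capitals mark CCAAT or its reverse complement ATTGG, the word bound by the factor NF-Y.
RNASEH2A: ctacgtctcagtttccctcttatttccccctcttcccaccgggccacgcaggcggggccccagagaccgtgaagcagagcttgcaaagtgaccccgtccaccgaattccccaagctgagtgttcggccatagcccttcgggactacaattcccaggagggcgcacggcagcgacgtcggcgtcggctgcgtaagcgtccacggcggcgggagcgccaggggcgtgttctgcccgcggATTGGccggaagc
RNASEH2B: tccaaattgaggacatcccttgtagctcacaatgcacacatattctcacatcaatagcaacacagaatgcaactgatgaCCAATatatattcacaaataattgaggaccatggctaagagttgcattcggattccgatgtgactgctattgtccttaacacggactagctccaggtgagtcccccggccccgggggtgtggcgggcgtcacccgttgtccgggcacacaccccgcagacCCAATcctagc
RNASEH2C: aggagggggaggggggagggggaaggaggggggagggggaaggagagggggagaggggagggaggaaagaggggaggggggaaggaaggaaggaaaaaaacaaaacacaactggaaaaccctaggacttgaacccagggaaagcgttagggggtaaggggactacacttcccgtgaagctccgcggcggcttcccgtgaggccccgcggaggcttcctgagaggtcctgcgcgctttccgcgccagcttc
TBK1: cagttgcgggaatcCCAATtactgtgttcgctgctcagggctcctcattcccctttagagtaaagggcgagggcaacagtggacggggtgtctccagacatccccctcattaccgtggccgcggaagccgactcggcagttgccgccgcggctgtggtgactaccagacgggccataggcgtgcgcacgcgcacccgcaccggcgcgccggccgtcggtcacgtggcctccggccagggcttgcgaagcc

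RefSeq gave a 300-base window (250 bases before the start site and 50 after it) for 6 of the 9 genes, namely TBK1, MAVS, TREX1 and the 3 RNase H2 subunit genes. The RNASEH2A window holds CCAAT once, on the opposite strand from 13 bases before the start, and the RNASEH2B window shown holds it at 171 and 11 bases before the start. TBK1 holds it at 236 and MAVS at 29 bases before the start, and the windows of RNASEH2C and TREX1 do not hold it. On either strand, 34.6% of the 35116 RefSeq windows of this length hold CCAAT. None of the 6 genes' windows holds any of the E2F words TTTCCCGC, TTTGGCGC, TTTCGCGC or TTTGCCGC, of which at least 1 is in 3.3% of all windows, or the interferon response word (GAAA, any 2 bases, GAAA), which is in 3.6%. The upstream bases of RNASEH2A are 66.0% G or C with 26 CG pairs, those of RNASEH2C 63.6% with 12, and those of RNASEH2B in the window shown 51.2% with 10. RefSeq gives another start site for RNASEH2B, not shown. Its upstream bases, chr13:50909541-50909790, are 69.2% G or C with 26 CG pairs and hold CCAAT at 124 bases before that start.

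Of the 9 genes, 8 passed the filter on low counts and TREX1 did not. In shRRM2 against control, RNASEH2A, RNASEH2B, RNASEH2C, IRF3 and MB21D1 fell and TBK1 rose, while TMEM173 and MAVS did not pass the test. That was 6 of 8 genes at an edgeR adjusted p under 0.05, where 60.9% of all 16561 tested genes were called, 29.0% higher and 31.8% lower. In shRRM2/shp16 against shRRM2, 7 of 8 passed, where 61.1% of all genes did, 31.9% higher and 29.1% lower: RNASEH2A, RNASEH2B, RNASEH2C, IRF3, TBK1 and MAVS rose and TMEM173 fell. In shRRM2/shp16 against control, 6 of 8 passed, where 62.4% of all genes did, 30.0% higher and 32.4% lower: TBK1 rose, and RNASEH2A, RNASEH2B, MB21D1, TMEM173 and IRF3 fell. The values of the groups compared did not overlap for 6, 7 and 6 of the 8 genes, against 63.6%, 64.7% and 66.2% of all tested genes. The median log2 fold change of the 8 genes was -0.46, 0.31 and -0.20 in the 3 comparisons, against 0.002, 0.011 and 0.015 over all tested genes. The 3 comparisons share libraries, so a fall in shRRM2 and a rise from shRRM2 to shRRM2/shp16 both use the same 3 shRRM2 values.

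**Figure D1:**
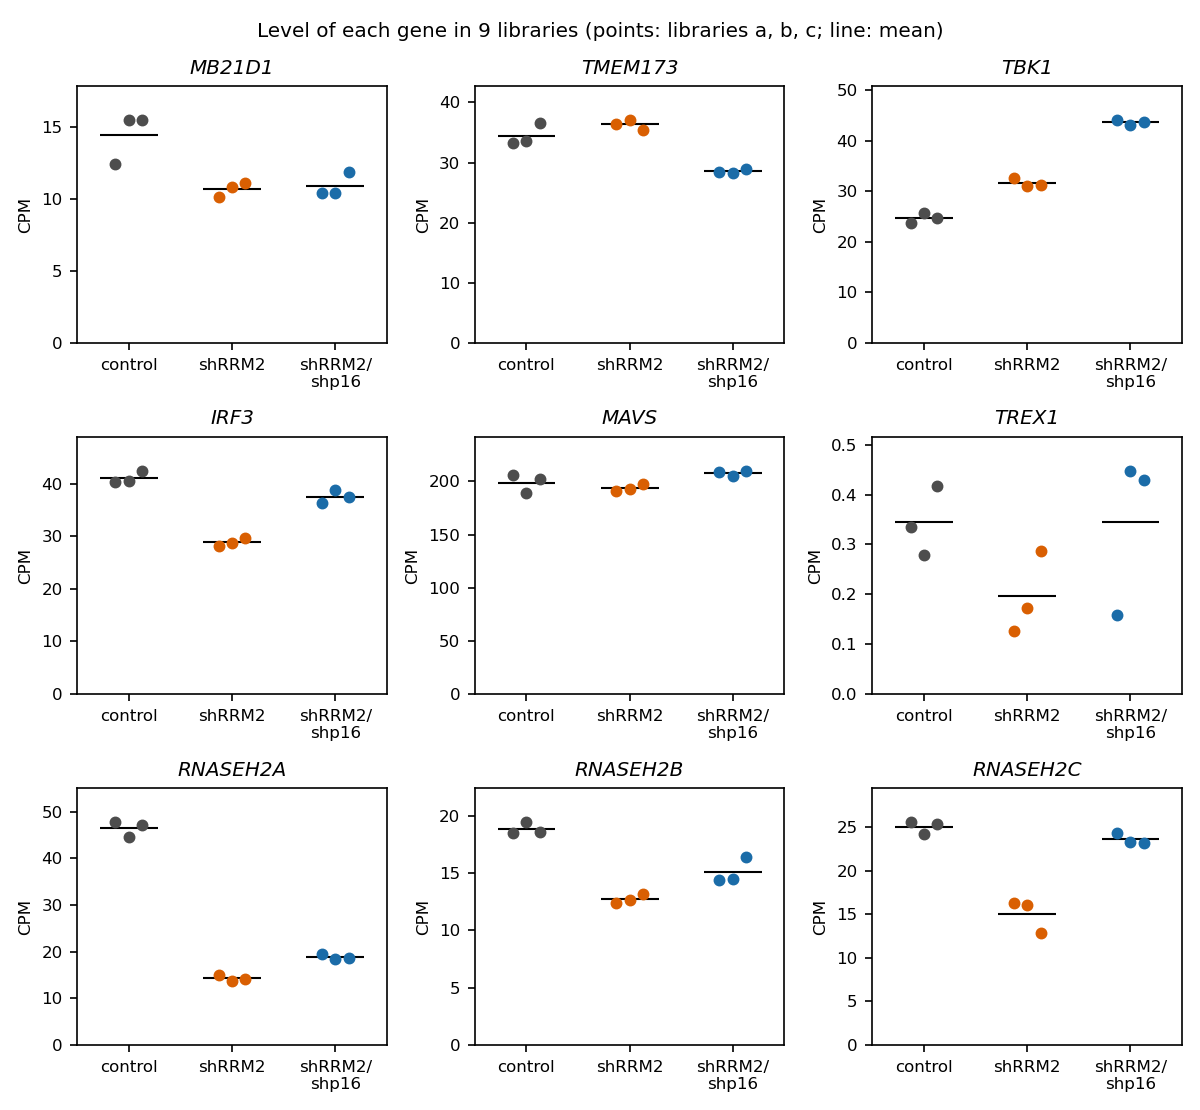
CPM of each gene (vertical axis, from 0) in the 9 libraries by group (horizontal axis), with 1 point per library and a line at the mean of 3. RNASEH2A separates most widely, with control above 44 CPM and all other libraries below 20 CPM, and TBK1 climbs from control to shRRM2/shp16 without overlap.

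RNASEH2A, the catalytic subunit of RNase H2, differed most. It was at 47.9, 44.6 and 47.2 CPM in control libraries a, b and c, at 15.0, 13.7 and 14.1 CPM in shRRM2, and at 19.6, 18.5 and 18.6 CPM in shRRM2/shp16. The 3 groups did not overlap, with shRRM2 lowest and control highest by a wide margin. RNASEH2A fell in shRRM2 to 30.6% of control, a log2 fold change of -1.71 ± 0.06 (SE, edgeR adjusted p 4.92e-26), and 0.737% of all tested genes had a lower log2 fold change. From shRRM2 to shRRM2/shp16 it rose by 0.41 ± 0.07 (edgeR adjusted p 6.25e-06), and it was still at 40.6% of control there, with a log2 fold change of -1.30 ± 0.06 (edgeR adjusted p 2.88e-23). Its counts ran from 236 to 1143 per library.

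RNASEH2B, which helps to hold the complex together, was at 18.5, 19.5 and 18.6 CPM in control, 12.4, 12.7 and 13.2 CPM in shRRM2 and 14.4, 14.5 and 16.4 CPM in shRRM2/shp16. The groups did not overlap and stood in the same order as for RNASEH2A, with a much narrower span. RNASEH2B fell in shRRM2 by 0.56 ± 0.08 on the log2 scale (edgeR adjusted p 5.31e-08), and was lower in shRRM2/shp16 than in control (log2 fold change -0.32 ± 0.08, edgeR adjusted p 0.000249). It rose from shRRM2 to shRRM2/shp16 by 0.24 ± 0.08 (edgeR adjusted p 0.0104). That last call was lost in 5 of 20 alternatives, with adjusted p-values from 0.00883 to 0.153 over all 20. One of the 5 left out shRRM2/shp16 replicate c, where the difference was 0.18 on the log2 scale (edgeR adjusted p 0.0833), and the others were 4 limma fits to the authors' RPKM values. The same 4 limma fits also lost the call in shRRM2/shp16 against control, with adjusted p-values up to 0.131.

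RNASEH2C, the other accessory subunit, was at 25.6, 24.2 and 25.4 CPM in control and 16.2, 16.0 and 12.8 CPM in shRRM2. In shRRM2/shp16 it was at 24.4, 23.2 and 23.2 CPM, where library a lay within the control range and b and c just below it, and all 3 lay above shRRM2. RNASEH2C fell in shRRM2 by 0.74 ± 0.08 on the log2 scale (edgeR adjusted p 1.65e-11) and rose from there to shRRM2/shp16 by 0.65 ± 0.08 (edgeR adjusted p 6.01e-10). Between shRRM2/shp16 and control the log2 fold change was -0.09 ± 0.07, with a 95% interval of -0.23 to 0.05 (edgeR adjusted p 0.251). Of the 3 subunits it was the one whose shRRM2/shp16 level was not called different from control. In the annotation, 28.2% of RNASEH2C exonic bases are shared with KAT5 on the opposite strand. Since the strand setting of the counting is not given in the sources used here, reads of the pair may not be told apart. KAT5, which encodes an acetyltransferase, had log2 fold changes of -0.37 (edgeR adjusted p 6.1e-06), 0.29 (0.000244) and -0.08 (0.274) in shRRM2 against control, shRRM2/shp16 against shRRM2 and shRRM2/shp16 against control.

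The RNA levels of the 3 subunit genes relative to each other differed between groups too, and the subunit proteins were not measured here. Compared per length, as RPKM computed from the counts with the gene lengths implied by the authors' deposited table, the ratio of RNASEH2A to RNASEH2B was 10.3 ± 0.68 (SD, n = 3) in control, 4.67 ± 0.33 in shRRM2 and 5.25 ± 0.48 in shRRM2/shp16. The ratio of RNASEH2A to RNASEH2C was 3.37 ± 0.02 in control, 1.74 ± 0.23 in shRRM2 and 1.45 ± 0.01 in shRRM2/shp16. Both ratios were higher in all 3 control libraries than in any other library. The ratio of RNASEH2C to RNASEH2B was 3.07 ± 0.18, 2.73 ± 0.42 and 3.62 ± 0.33, with overlap between control and shRRM2. A two-sided exact permutation test of 3 libraries against 3 cannot give a p below 0.1, which these ratios of RNASEH2A gave against control, so none could pass the threshold. Among 18 such tests of 6 ratios in the 3 comparisons, the smallest Benjamini-Hochberg adjusted exact p was 0.12. The size of each ratio depends on the lengths used, and its change between groups does not.

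**Figure D2:**
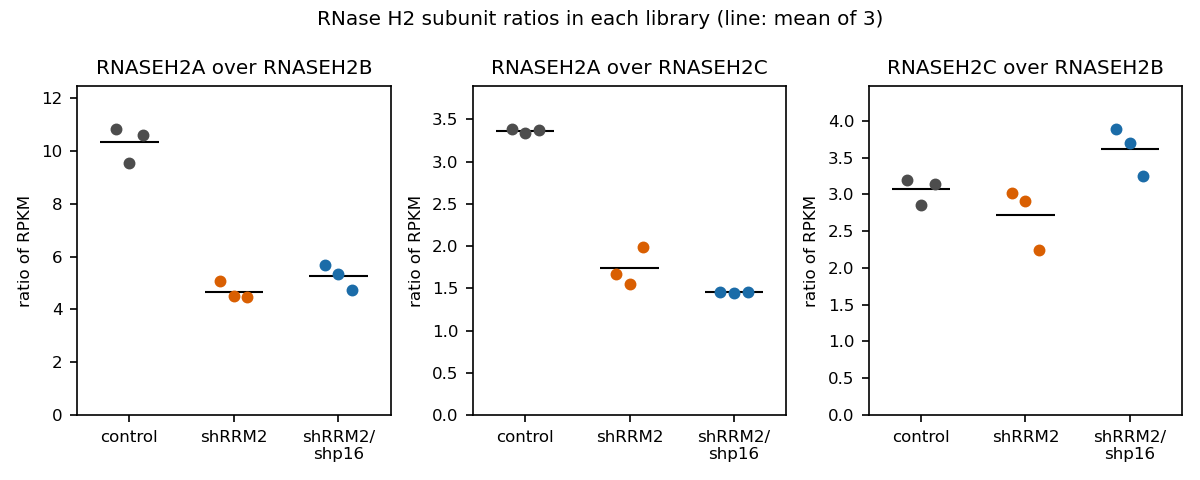
Ratio of RPKM between pairs of RNase H2 subunit genes (vertical axes, from 0) in each library by group (horizontal axis), with a line at the mean of 3. Both ratios that hold RNASEH2A are highest in the 3 control libraries, and RNASEH2C over RNASEH2B overlaps between control and shRRM2.

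TREX1 could not be followed from these counts. It had 8, 5 and 7 counts in control, 2, 3 and 5 in shRRM2 and 3, 9 and 8 in shRRM2/shp16, and the groups overlap. In the annotation used here, all 1515 of its exonic bases lie within exons of ATRIP on the same strand. The authors' deposited table implies a TREX1 length of 2197 bases, so the overlap in the gene model behind the counts is not known. The part of this overlap in the low counts was not tested. Without the filter on low counts its log2 fold change in shRRM2 against control was -0.81 ± 0.59 (edgeR adjusted p 0.377), in shRRM2/shp16 against shRRM2 0.81 ± 0.59 (0.385) and in shRRM2/shp16 against control 0.00 ± 0.52 (adjusted p 1). No difference was called. The authors' deposited table, which came from Cufflinks and not from these counts, lists TREX1 at 5.13 FPKM in shRRM2 and 5.93 FPKM in shRRM2/shp16, with a q-value of 0.612. ATRIP, which encodes the partner of the checkpoint kinase ATR, was at 13.8 ± 1.57 CPM in control, 8.53 ± 0.99 in shRRM2 and 8.15 ± 0.51 in shRRM2/shp16, and fell in both against control, with log2 fold changes of -0.71 and -0.77 (edgeR adjusted p 5.62e-08 and 4.35e-09).

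MB21D1, which encodes the DNA sensor cGAS, was at 12.4, 15.4 and 15.5 CPM in control, 10.1, 10.8 and 11.1 CPM in shRRM2 and 10.4, 10.4 and 11.8 CPM in shRRM2/shp16. All control values were above all others, control library a stood below the other controls, and the shRRM2 and shRRM2/shp16 libraries overlapped. MB21D1 fell in shRRM2 by 0.42 ± 0.09 (edgeR adjusted p 0.000174) and stood lower in shRRM2/shp16 than in control (log2 fold change -0.39 ± 0.09, edgeR adjusted p 0.000231). Between shRRM2/shp16 and shRRM2 the log2 fold change was 0.02 ± 0.10, with a 95% interval of -0.18 to 0.22 (edgeR adjusted p 0.848).

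TMEM173, which encodes the adaptor STING, followed another order. It was at 33.2, 33.6 and 36.5 CPM in control, 36.4, 37.2 and 35.4 CPM in shRRM2 and 28.4, 28.2 and 29.0 CPM in shRRM2/shp16. Control and shRRM2 overlapped, and all shRRM2/shp16 values lay below both. TMEM173 fell from shRRM2 to shRRM2/shp16 by 0.35 ± 0.06 (edgeR adjusted p 9.22e-07), and against control by 0.27 ± 0.06 (edgeR adjusted p 5.4e-05). In shRRM2 against control the log2 fold change was 0.08 ± 0.06, with a 95% interval of -0.03 to 0.19 (edgeR adjusted p 0.208). In a limma fit, added after the data had been seen, to the 8 RPKM columns that match their counts, that difference was 0.13 with an adjusted p of 0.0365 (0.0365 to 0.683 over 20 alternatives).

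TBK1, the kinase below STING and MAVS, was the gene that rose in all 3 comparisons. It was at 23.6, 25.7 and 24.7 CPM in control, 32.6, 31.0 and 31.2 CPM in shRRM2 and 44.2, 43.1 and 43.6 CPM in shRRM2/shp16. The groups were well apart, in that order, with a narrow spread within each. TBK1 rose in shRRM2 by 0.36 ± 0.06 (edgeR adjusted p 1.02e-06) and from there to shRRM2/shp16 by 0.47 ± 0.05 (edgeR adjusted p 3.96e-10). Against control the rise in shRRM2/shp16 was 0.83 ± 0.06, to 177% of the control level (edgeR adjusted p 1.73e-17), and 90.6% of tested genes had a lower log2 fold change there. The antisense gene that shares 14.7% of TBK1 exonic bases, AC135279.3, had 0 to 6 counts per library.

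IRF3, the transcription factor that TBK1 phosphorylates, fell in shRRM2, where TBK1 rose. It was at 40.3, 40.5 and 42.5 CPM in control, 28.2, 28.7 and 29.7 CPM in shRRM2 and 36.3, 38.8 and 37.6 CPM in shRRM2/shp16. The 3 groups did not overlap, with shRRM2 lowest and shRRM2/shp16 a little below control. IRF3 fell in shRRM2 by 0.51 ± 0.06 (edgeR adjusted p 9.31e-11) and rose to shRRM2/shp16 by 0.38 ± 0.06 (edgeR adjusted p 1.12e-07). The fall of shRRM2/shp16 against control, -0.13 ± 0.05 (edgeR adjusted p 0.0302), was lost in 11 of 20 alternatives (0.0249 to 0.682). These included leaving out control replicate b (0.0506) or c (0.106) or shRRM2/shp16 replicate a (0.158) or c (0.0841), and DESeq2 (0.0876). IRF3 shares 19.3% of its exonic bases with BCL2L12 on the opposite strand. BCL2L12 fell in shRRM2 against control (log2 fold change -0.84, edgeR adjusted p 2.41e-10) and in shRRM2/shp16 against control (-0.70, 6.08e-09), and its log2 fold change between the hairpin groups was 0.14 (0.23).

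MAVS, the mitochondrial adaptor of RNA sensing, had the smallest spread over the 9 libraries of the 8 tested genes (root mean square 0.055 in log2 CPM, against 0.727 for RNASEH2A). It was at 206, 189 and 202 CPM in control, 191, 193 and 198 CPM in shRRM2 and 209, 205 and 210 CPM in shRRM2/shp16. Control overlapped both other groups, and shRRM2/shp16 lay wholly above shRRM2. MAVS rose from shRRM2 to shRRM2/shp16 by 0.10 ± 0.03 (edgeR adjusted p 0.0064). In shRRM2 against control its log2 fold change was -0.04 ± 0.03, with a 95% interval of -0.10 to 0.03 (edgeR adjusted p 0.325). In shRRM2/shp16 against control it was 0.06 ± 0.03 (edgeR adjusted p 0.0787), and 10 of 20 alternatives called it higher (0.00177 to 0.429), among them leaving out control replicate a (0.011), shRRM2 replicate c (0.0472) or shRRM2/shp16 replicate b (0.0488).

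**Figure D3:**
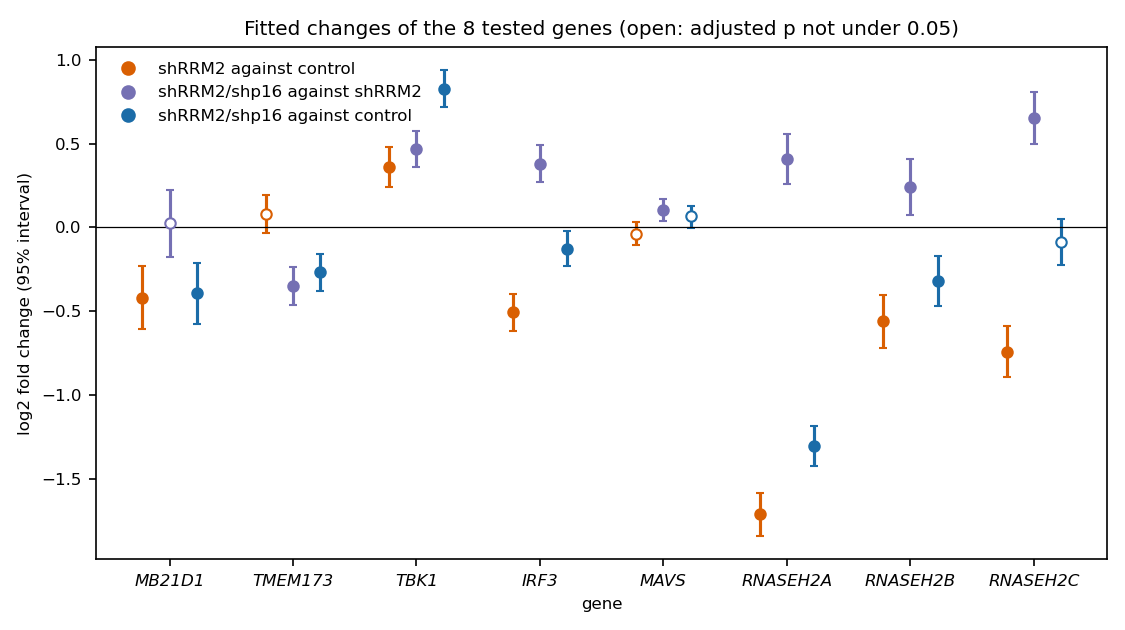
Log2 fold change of the 8 tested genes (vertical axis) with 95% intervals for the 3 comparisons (colours), with filled points at an edgeR adjusted p under 0.05. RNASEH2A reaches -1.71 in shRRM2 against control, and TBK1 is above 0 in all 3 comparisons.

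Per gene length, the order of the genes changed between groups. In control the RPKM computed from the counts was 22.8 ± 0.85 for RNASEH2A, 16.9 ± 0.76 for MAVS, 10.8 ± 0.33 for IRF3 and 8.95 ± 0.47 for TMEM173 (mean ± SD, n = 3). RNASEH2C followed at an RPKM of 6.78, then TBK1 at 5.18, MB21D1 at 3.48, RNASEH2B at 2.21 and TREX1 at 0.157, and no neighbouring genes in this order overlapped. In shRRM2 the order by RPKM was MAVS at 16.5, TMEM173 at 9.44, IRF3 at 7.61, RNASEH2A at 6.99 and TBK1 at 6.64, where the libraries of RNASEH2A and TBK1 overlapped. In shRRM2/shp16 MAVS stood at an RPKM of 17.7, and IRF3 (9.90), RNASEH2A (9.27) and TBK1 (9.16) overlapped as neighbours, followed by TMEM173 at 7.41. RNASEH2A thus went from the first place in control to the fourth in shRRM2, and TBK1 from below TMEM173 in control to above it in shRRM2/shp16. The ratio of TBK1 to TMEM173 RPKM was 0.58 ± 0.03 in control, 0.70 ± 0.02 in shRRM2 and 1.24 ± 0.02 in shRRM2/shp16, without overlap, and the ratio of TBK1 to MB21D1 was 1.50 ± 0.14, 2.59 ± 0.20 and 3.51 ± 0.26. The lengths implied by the authors' deposited table equal the GENCODE 29 exonic bases for 5 genes and differ for TREX1 (2197 against 1515), RNASEH2A (2039 against 3645), RNASEH2B (8519 against 26291) and RNASEH2C (3697 against 5101), so the places of these 4 depend on the annotation.

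**Figure D4:**
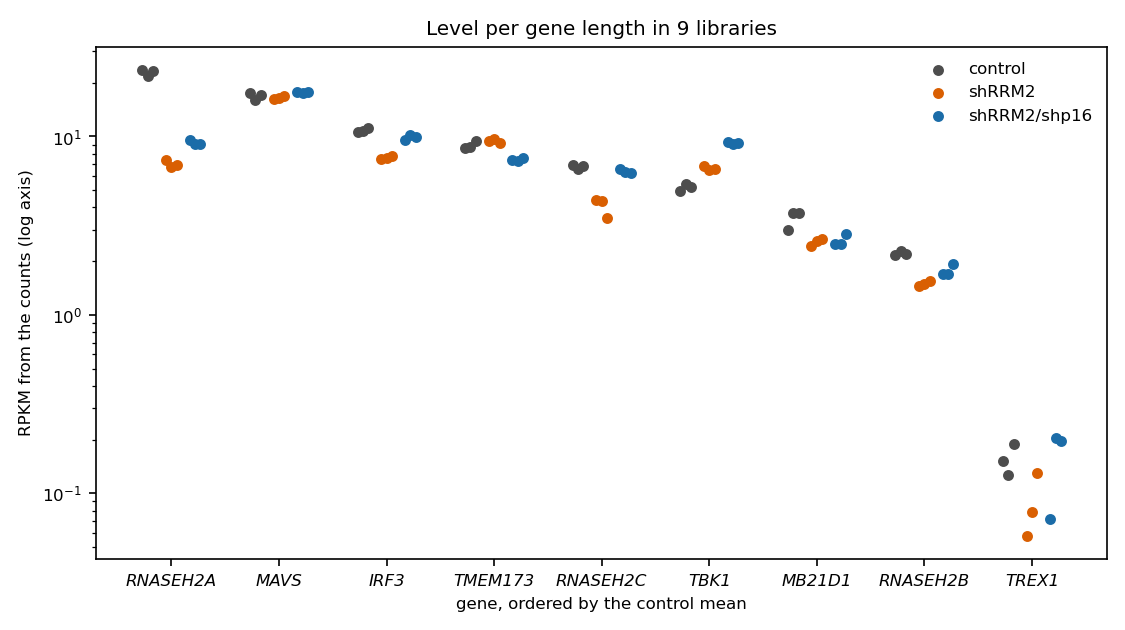
RPKM of each gene computed from the counts (vertical log axis) in the 9 libraries, coloured by group, with genes ordered by their control mean (horizontal axis). RNASEH2A is first in control and drops among IRF3 and TBK1 in the other groups, and TREX1 stays below 0.21.

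The authors' deposited table gives its own levels and test for shRRM2/shp16 against shRRM2. In the authors' deposited table TMEM173 went from 22.3 to 15.7 FPKM (log2 fold change -0.51) and RNASEH2C from 18.2 to 27.8 FPKM (0.61), both marked significant with a q-value of 0.000444. The other 7 were not marked in the authors' deposited table, where RNASEH2A had a log2 fold change of 0.41 (q-value 0.402), TBK1 0.39 (0.231), IRF3 0.29 (0.15), MAVS 0.13 (0.315) and MB21D1 0.15 (0.422). RNASEH2B went from 59.1 to 42.9 FPKM in the authors' deposited table (log2 fold change -0.46, q-value 0.771), opposite in sign to the counts. The authors' deposited table also places RNASEH2B and IRF3 highest of the 9 genes by FPKM, whereas by RPKM from the counts MAVS led in both groups.

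Across the 9 libraries, the genes whose profiles lay closest to each of 7 members differed from member to member. Likeness was the root mean square difference in log2 CPM, after each gene was centred on its own mean, among 11305 genes. RNASEH2A was closest to KIF2C (0.050) and INCENP (0.054), which encode a mitotic kinesin and a chromosomal passenger protein. TBK1 was closest to ARID4B (0.027) and WNT5A (0.031), IRF3 to DDX21 (0.027) and APEX1 (0.031), and MAVS to QARS (0.021) and TRIP12 (0.022). TMEM173 was closest to LAPTM4B (0.032) and NDUFV3 (0.039), and MB21D1 to SETD8 (0.061) and GTF2A2 (0.073). RNASEH2C was closest to ZC4H2 (0.063) and CACNA1H (0.067). Among the members, IRF3 and RNASEH2B were the nearest pair (0.102) and TBK1 and RNASEH2A the farthest apart (0.985).

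Genes of DNA replication and S phase were read beside the RNase H2 genes. Of 20 such genes 19 fell and CCNE2 rose in shRRM2 against control (median log2 fold change -0.92), and all 20 fell in shRRM2/shp16 against control (median -1.24). Over all tested genes, 31.8% and 32.4% were called lower in these comparisons. RNASEH2A (-1.71 and -1.30) lay below the first median and near the second, and RNASEH2B (-0.56 and -0.32) and RNASEH2C (-0.74 and -0.09) lay above both. From shRRM2 to shRRM2/shp16, 13 of the 20 fell and 3 rose, with a median of -0.32, while all 3 RNase H2 genes rose. There 29.1% of all tested genes were called lower and 31.9% higher. MKI67, a marker of cycling cells, was at 1036 ± 14.6, 322 ± 16.0 and 389 ± 11.3 CPM in control, shRRM2 and shRRM2/shp16 (mean ± SD, n = 3), so that like RNASEH2A it was lowest in shRRM2. The part of cell cycle state in the changes of the RNase H2 genes was not tested.

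Of 21 other genes that clear or process nucleic acids, 17 passed the filter. In shRRM2 against control 8 fell and 4 rose (median -0.12), in shRRM2/shp16 against shRRM2 9 rose and 7 fell (0.14), and in shRRM2/shp16 against control 10 fell and 6 rose (-0.17). The shares called were 70.6%, 94.1% and 94.1%, beside 60.9%, 61.1% and 62.4% of all tested genes. FEN1, the flap endonuclease of lagging-strand synthesis and ribonucleotide repair, went from 72.8 ± 0.72 CPM in control to 38.4 ± 1.80 in shRRM2 and 30.4 ± 1.09 in shRRM2/shp16, with log2 fold changes against control of -0.92 and -1.26. The exonuclease gene EXO1 fell alike, by 0.89 and 1.37, and BANF1, whose product covers DNA and limits cGAS, fell by 0.72 in shRRM2. LSM11, a histone RNA processing gene that is also linked to Aicardi-Goutières syndrome, fell from 18.8 ± 1.60 to 12.5 ± 1.36 and 8.59 ± 0.48 CPM. DNASE1L1 fell by 0.74 from shRRM2 to shRRM2/shp16. All edgeR adjusted p-values of these named changes were 7.69e-06 or lower. TREX2 (2 to 12 counts), SKIV2L (2 to 9 for 1 of its 6 gene identifiers), DNASE1L3 (0 to 2) and PLD4 (0 to 1) were below the filter.

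Among 12 other proposed DNA sensors and cGAS cofactors, 9 of the 10 tested fell in shRRM2 against control and 0 rose, with a median log2 fold change of -0.26, while MB21D1 itself was at -0.42. Over all tested genes, 31.8% were called lower and 29.0% higher there. DHX9, a helicase, fell from 302 ± 1.21 to 185 ± 2.94 CPM (-0.71), PQBP1, a cGAS cofactor, fell by 0.58 and PRKDC, the catalytic subunit of DNA-dependent protein kinase, by 0.52. In shRRM2/shp16 against shRRM2 5 rose and 4 fell, with DHX36 (0.59) and ZCCHC3 (0.54) higher and LRRFIP1 (-0.55) lower. In shRRM2/shp16 against control 8 fell and 2 rose, with LRRFIP1 (-0.77), PRKDC (-0.59) and DDX41 (-0.47) the largest falls. All edgeR adjusted p-values of these named changes were 3.06e-10 or lower. AIM2 (0 to 3 counts) and ZBP1 (0 to 7) were below the filter. The shares of the 10 called were 90%, 90% and 100% in the 3 comparisons, beside 60.9%, 61.1% and 62.4% of all tested genes.

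Of 18 genes that transport, modify or supply STING, 17 passed the filter. Against control 4 rose and 5 fell in shRRM2, in shRRM2/shp16 against shRRM2 4 rose and 8 fell, and in shRRM2/shp16 against control 4 rose and 10 fell, with medians of 0.00, -0.09 and -0.20. These were 52.9%, 70.6% and 82.4% of those tested, beside 60.9%, 61.1% and 62.4% of all tested genes. ENPP1, the enzyme that breaks down cGAMP, went from 49.3 ± 1.37 CPM in control to 31.0 ± 1.06 in shRRM2 and 13.1 ± 0.26 in shRRM2/shp16, with log2 fold changes of -0.67, -1.24 and -1.91 in the 3 comparisons (edgeR adjusted p 1.3e-14, 1.62e-20 and 5.58e-29). SLC19A1, a folate carrier that also imports cyclic dinucleotides, fell against control by 0.92 in shRRM2 and 0.62 in shRRM2/shp16. TMEM203, which encodes a STING-binding protein, fell by 0.85 in shRRM2. From shRRM2 to shRRM2/shp16, ZDHHC7, a palmitoyltransferase gene, fell by 0.67 and the ubiquitin ligase gene TRIM56 rose by 0.66. NPC1, a cholesterol transporter gene, rose by 0.71 in shRRM2/shp16 against control. All edgeR adjusted p-values of these named changes were 2.28e-10 or lower. The symbol RNF5 belongs to 7 gene identifiers, and the one used had 0 counts in all libraries, so the level of RNF5 cannot be read from these counts.

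Of 11 TBK1 partners and interferon regulatory factors, 9 passed the filter, of which 4 rose and 1 fell in shRRM2 against control, 6 rose and 2 fell from shRRM2 to shRRM2/shp16, and 7 rose and 0 fell in shRRM2/shp16 against control. That was 55.6%, 88.9% and 77.8% of those tested, beside 60.9%, 61.1% and 62.4% of all tested genes, and the medians were 0.26, 0.29 and 0.37. SQSTM1, an autophagy receptor that TBK1 phosphorylates, rose stepwise from 299 ± 8.33 to 365 ± 14.2 and 621 ± 4.80 CPM, and TANK, a scaffold of TBK1, rose from 27.9 ± 1.37 CPM in control to 34.1 ± 2.79 CPM in shRRM2 and by a further 0.55 on the log2 scale to shRRM2/shp16. IKBKE, the kinase most like TBK1, rose by 0.52 in shRRM2/shp16 against control, and IRF2 rose by 0.73 from shRRM2. TBKBP1 and OPTN, 2 further TBK1-binding proteins, rose in shRRM2 against control by 0.74 and 0.50. They were the 2 genes that fell from shRRM2 to shRRM2/shp16, with log2 fold changes of -0.51 and -0.41. All edgeR adjusted p-values of these named changes were 8.4e-05 or lower. IRF5 (0 to 4 counts) and IRF7 (1 to 5 for 1 of its 2 gene identifiers), the inducible partner of IRF3, were below the filter.

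All 13 genes listed under RNA sensing, not all of which act through MAVS, passed the filter. The test called 8 higher and 2 lower in shRRM2 against control (median 0.25), in shRRM2/shp16 against shRRM2 3 rose and 5 fell (-0.01), and in shRRM2/shp16 against control 5 rose and 3 fell (0.04). The shares called were 76.9%, 61.5% and 61.5%, beside 60.9%, 61.1% and 62.4% of all tested genes. DDX58, which encodes RIG-I, rose in shRRM2 from 22.9 ± 0.79 to 32.0 ± 1.86 CPM (0.48), and TRAF3, an adaptor below MAVS, rose by 0.41 there and by 0.77 in shRRM2/shp16 against control. IFIH1, which encodes MDA5, was at 1.62 ± 0.27, 1.48 ± 0.56 and 4.01 ± 0.65 CPM, on 17 to 94 counts, and rose by 1.45 from shRRM2 to shRRM2/shp16 (edgeR adjusted p 1.17e-07). TRAF2 fell in shRRM2 by 0.68, and NLRX1 and TICAM1 fell from shRRM2 to shRRM2/shp16 by 0.57 and 0.44. All edgeR adjusted p-values of these named changes were 7.83e-07 or lower. Together the 5 lists of other pathway genes held 75 genes, 66 of them tested, of which 20 rose and 25 fell in shRRM2, 27 rose and 26 fell from shRRM2 to shRRM2/shp16, and 24 rose and 31 fell in shRRM2/shp16 against control. For these 66 genes the shares called were 68.2%, 80.3% and 83.3%.

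Interferons and genes induced through IRF3 or interferon came last. IFNB1, IFNA1 and IFNL1 had 0 counts in all 9 libraries, where a count of 0 allows a level of up to 3 counts per library. The chemokine gene CCL5 had 0 or 1 for the 1 of its 2 gene identifiers that was used. Of 30 such genes, 19 passed the filter: in shRRM2 against control 8 fell and 1 rose (median -0.22), in shRRM2/shp16 against shRRM2 13 rose and 0 fell (0.57), and in shRRM2/shp16 against control 8 rose and 3 fell (0.25). The shares of the 19 called were 47.4%, 68.4% and 57.9%, beside 60.9%, 61.1% and 62.4% of all tested genes. In shRRM2/shp16 against shRRM2, 31.9% of all tested genes were called higher and 29.1% lower. OAS3, an interferon-induced enzyme activated by double-stranded RNA, went from 42.6 ± 2.60 CPM in control to 8.75 ± 1.25 in shRRM2 and 23.7 ± 1.37 in shRRM2/shp16, with log2 fold changes of -2.28, 1.43 and -0.85. MX1 and IFIT1, both antiviral effectors, fell in shRRM2 by 0.95 and 0.91. IFI35 and ISG20 rose from shRRM2 to shRRM2/shp16, to 4.55 ± 0.41 and 4.98 ± 0.55 CPM, and STAT2, a subunit of the interferon-activated transcription factor, rose against control by 0.72 to 193 ± 2.64 CPM. All edgeR adjusted p-values of these named changes were 2.61e-05 or lower. CXCL10, an IRF3 target named here after its values were seen, had 4, 2 and 0 counts in control, 4, 0 and 1 in shRRM2 and 46, 45 and 57 in shRRM2/shp16. CXCL10 passed the filter only through its shRRM2/shp16 counts. It is 1 of the 13 genes that rose against shRRM2 and 1 of the 8 that rose against control, and adds no separate support to these counts. The count of 13 was 8 with limma on the authors' RPKM, restricted to a mean of 1 or more, and the count of 11 against control was 5 with that fit and 7 with DESeq2. That limma fit tested fewer induced genes than the 19. By RPKM from the counts, IFI44, IFI44L, MX1, MX2, XAF1, HERC5 and ISG20 were below 1 on average in every group.

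**Figure D5:**
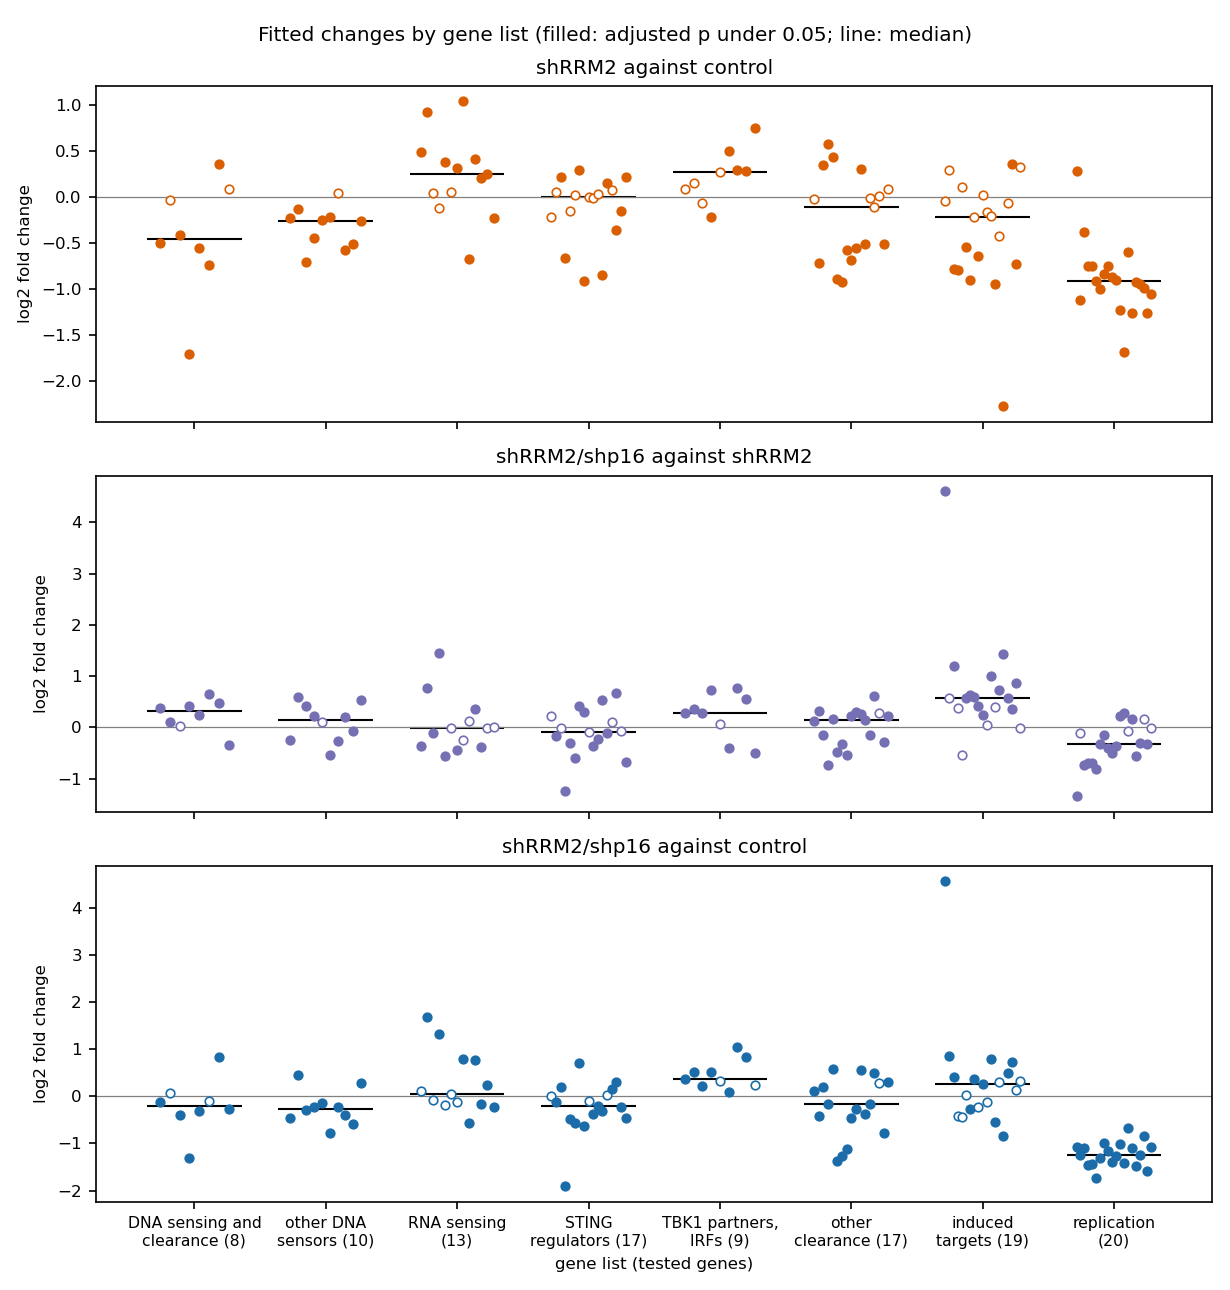
Log2 fold change of each tested gene (vertical axes) in 8 gene lists (horizontal axis) for the 3 comparisons (panels), with filled points at an edgeR adjusted p under 0.05 and a line at the list's median. The replication genes lie mostly below 0 in each comparison, and the TBK1 partners have a median above 0 in all 3.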

How the data were processed

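Total RNA from 9 IMR90 libraries was DNase-treated, depleted of ribosomal RNA and made into stranded libraries, per the labels' protocols. The authors deposited 1 file of raw counts per library, by Ensembl gene, in the layout that HTSeq writes. They also deposited a table that holds, per the file headers, a log2 RPKM value for each library, FPKM per group for shRRM2 and shRRM2/shp16, and a log2 fold change with p-value and q-value between those groups. The test statistic in it, a score deposited by the authors, was not used. TopHat2 2.0.9, Cufflinks 2.0.2, Cuffdiff and GRCh38 are named in the submitters' processing notes, and neither the annotation release nor the strand setting is given in the sources used here. Recalculation from the counts showed the deposited log2 RPKM values to be the log2 of 1 plus RPKM expressed per base in place of per kilobase. The column of shRRM2 replicate c was within 1% of its own counts for 5.28% of 12001 genes, and the 8 others for 100%. Those 8 columns were scaled to total gene counts without TMM factors. The TMM factors were 0.961 to 0.972 in control, 0.992 to 1.001 in shRRM2 and 1.037 to 1.04 in shRRM2/shp16. Columns that belong to no sample numbered 0. Tally lines that name no gene (17.6% to 28.8% of unique reads outside genes, 3.74% to 6.02% ambiguous) were left out of library sizes.

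The groups came from the labels. The counts went into edgeR 4.0.16 (R 4.3.3): filterByExpr by group left 16561 genes with 99.8% of the counts, TMM factors scaled the libraries, and 1 quasi-likelihood fit of all 9 libraries (6 residual degrees of freedom, common biological coefficient of variation 0.027) gave 3 two-sided comparisons. Benjamini-Hochberg adjustment ran over all tested genes, with a threshold of 0.05. CPM and RPKM were computed from the counts with TMM-scaled library sizes, and RPKM used the gene lengths implied by the deposited table. A ± after a log2 fold change is the standard error. Within each group the libraries differed beyond counting noise (chi-square per degree of freedom 1.43 to 2.87). Libraries of the same letter did not deviate together (r of -0.02 to 0.05 over 9 pairs), so the letters were not used as pairs. Counts carry no molecular identifiers, so counting error understates the total error.

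The members and gene lists were chosen with earlier results of these data known. Where several gene identifiers share a symbol (RNF5, SKIV2L, ABCC1, IRF7, IRF9, CCL5, IFI27 and PTPRC), the one with most counts was used. Named list genes were, per list and comparison, up to 3 called genes with the largest absolute log2 fold change, if their mean log2 CPM was 1 or more, and genes below the filter. For each member the 2 genes of most similar profile were also named, among genes whose mean log2 CPM was 2 or more. A few genes that these rules name are not reported here. Promoter sequences came from RefSeq (GRCh38.p14), and 6 of the 9 genes matched. Alternatives were other size factors, DESeq2 1.42.0, other filters, only the 6 libraries compared, a replicate block, each library left out, and limma 3.58.1 on log2 values of RPKM as deposited, with a pseudocount of 0.1 or 1, or with a mean RPKM of at least 1.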

Additional observations from a re-analysis of the deposited data

How the results depend on the processing

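Each of the 24 member differences was recomputed under 20 alternatives: 442 values kept their direction and side of the threshold, 20 lost and 11 gained a call, and 7 reversed, all 7 in differences that had no call. MB21D1 in shRRM2/shp16 against shRRM2 reversed to -0.011 without shRRM2 replicate a and -0.034 without shRRM2/shp16 replicate c (-0.034 to 0.063 with 1 library left out). RNASEH2C in shRRM2/shp16 against control reversed in limma fits. On log2 RPKM as deposited and on genes with a mean RPKM of at least 1 it reversed to 9.9e-05. That value is on the deposited scale of 1 plus RPKM per base, and its size cannot be set beside a log2 fold change. It reversed to 0.015 with a pseudocount of 0.1 and to 0.013 with a pseudocount of 1, in all 9 columns and in the 8 that match their counts (the last 2 settings were chosen after the data were seen). The members called numbered 6 to 6, 6 to 7 and 5 to 7 in shRRM2 against control, shRRM2/shp16 against shRRM2 and shRRM2/shp16 against control when 1 library was left out. The other pathway genes numbered 42 to 46, 48 to 54 and 53 to 58, the induced genes 8 to 11, 12 to 16 and 8 to 12, and all genes 9459 to 10125, 9520 to 10366 and 9744 to 10545. With limma on genes with a mean RPKM of at least 1, where fewer genes were tested, 6575 genes were called in shRRM2 against control in place of 10079. That fit, which also tested fewer induced genes, called 8 and 5 of them in the other comparisons in place of 13 and 11. DESeq2 called 7 in place of 11, and the cause of that difference was not tested. A replicate block by letter called 6, 7 and 6 members and 10101, 10134 and 10388 genes, and changed no member's call. Limma on log2 RPKM as deposited put 62.4% of calls higher in shRRM2/shp16 against shRRM2, where the counts gave 52.3%, and 59.5% against control, where the counts gave 48.1%. The deposited RPKM values carry no TMM factors, and the part of this in the limma results was not tested. TREX1 had 2 to 9 counts per library, too few to pass the filter.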
